A study of Mus musculus with 8 samples.

Results

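The genes through which absorptive colonocytes move ions, water and short-chain fatty acids were compared between wildtype colons and colons with an epithelial Ihh knockout. The 10 genes were listed by symbol: Slc26a3, Slc9a3, Slc5a8, Slc16a1, Car1, Car4, Aqp8, Scnn1a, Scnn1b and Scnn1g. Their probes were found by gene symbol in the platform annotation. Of the 10, 8 had a probe and 7 were tested, among 10184 named genes tested in all. Car1 and Slc9a3 were not analysed here, and the Slc16a1 probe was detected on 0 of the 8 arrays. Whole colons came from C57BL/6 mice of 2 genotypes, 4 colons each, hybridised to 1 Illumina beadchip. Wildtype mice were Villin-CreERT2-Ihh+/+ and knockout mice were Villin-CreERT2-Ihhfl/fl. Both genotypes therefore carried the recombinase, which the Villin promoter drives in intestinal epithelium and tamoxifen switches on. Tamoxifen was injected at 1 mg daily for 5 days into both, and the organ was removed on day 7. The ages of the mice were not stated. The titles number the colons 1 to 4 within a genotype and no label ties them further to animals, so the p-values measure only the spread between these samples. RNA came from the whole organ, in which fewer cells of a type and less RNA per cell cannot be told apart.

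Ihh encodes Indian hedgehog, a ligand that differentiated colonocytes release to the underlying mesenchyme. Surface colonocytes absorb sodium and chloride, and water follows. Slc26a3 and Slc9a3 exchange chloride for bicarbonate and sodium for protons at the luminal membrane, and carbonic anhydrases supply the bicarbonate and protons. The epithelial sodium channel, built from alpha, beta and gamma subunits, is the aldosterone-sensitive route in the distal colon. Butyrate and other bacterial fatty acids enter through monocarboxylate carriers and are the main fuel of these cells.

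The promoters of the 4 members that stood farthest below the other colons in the knockout 4 colon are shown because those genes carry the main observation below. Each runs from 250 bases before to 50 bases after the gene's start in RefSeq, build GRCm38.p6, on the plus strand, 300 bases in all. Capitals mark matches to a TATA box (TATAAA), a CDX motif (TTTATNG), an HNF4 motif (CAAAGTNCA) or a GC box (GGGCGG) on either strand. CDX and HNF4 proteins are transcription factors of intestinal epithelium. The positions are Slc5a8 at chr10:88885742-88886041, Car4 at chr11:84957504-84957803, Slc26a3 at chr12:31437969-31438268 and Aqp8 at chr7:123462044-123462343.
Slc5a8: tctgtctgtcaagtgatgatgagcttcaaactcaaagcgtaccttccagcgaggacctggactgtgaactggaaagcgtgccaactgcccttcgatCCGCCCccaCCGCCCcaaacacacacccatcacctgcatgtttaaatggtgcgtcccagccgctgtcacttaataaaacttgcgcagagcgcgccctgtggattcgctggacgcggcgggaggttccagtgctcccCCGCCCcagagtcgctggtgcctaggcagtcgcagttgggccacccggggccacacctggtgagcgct
Car4: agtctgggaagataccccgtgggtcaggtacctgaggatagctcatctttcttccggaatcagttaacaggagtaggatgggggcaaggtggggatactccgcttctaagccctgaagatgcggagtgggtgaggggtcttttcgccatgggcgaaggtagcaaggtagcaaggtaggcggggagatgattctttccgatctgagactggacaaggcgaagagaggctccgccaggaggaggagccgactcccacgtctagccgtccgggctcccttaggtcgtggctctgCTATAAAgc
Slc26a3: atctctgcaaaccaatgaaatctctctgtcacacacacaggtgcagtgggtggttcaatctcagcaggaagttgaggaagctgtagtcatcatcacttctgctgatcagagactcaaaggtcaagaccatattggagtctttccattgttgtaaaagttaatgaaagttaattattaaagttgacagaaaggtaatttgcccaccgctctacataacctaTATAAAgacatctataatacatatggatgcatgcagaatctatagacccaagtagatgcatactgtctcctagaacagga
Aqp8: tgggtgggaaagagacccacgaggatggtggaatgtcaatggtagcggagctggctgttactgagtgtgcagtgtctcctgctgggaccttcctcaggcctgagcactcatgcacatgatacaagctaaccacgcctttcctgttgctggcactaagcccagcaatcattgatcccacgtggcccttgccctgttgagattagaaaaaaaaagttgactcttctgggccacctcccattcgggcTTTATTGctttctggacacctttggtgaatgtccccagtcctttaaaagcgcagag

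The 4 promoters differed in the motifs found. Slc5a8 held 3 GC boxes on the minus strand, a match present in 35.7% of the 32851 mouse promoters searched. Slc26a3 had a TATA box that began 30 bases before its start, at -30, and 13.6% of all promoters held that match. Aqp8 had a CDX match beginning at -6. In Car4 a TATA box match beginning at base 42 after the start overlapped a CDX match on the minus strand. CDX matches were present in 10.9% of all promoters. The HNF4 letters were in none of the 4 windows and in 1.41% of all promoters. No motif searched was shared by all 4, and a match is a description of letters only.

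The labels were checked on the deleted gene first. Ihh measured 10.47, 10.50, 10.42 and 10.17 in wildtype colons 1 to 4, and 9.56, 9.03, 9.28 and 9.50 in knockout colons 1 to 4, as log2 normalised intensity, the scale of all levels below. The groups did not overlap, with a log2 change, knockout minus wildtype, of -1.05 (SE 0.149, limma adjusted p = 0.130). Ihh was still detected on all 4 knockout arrays. Hhip, a hedgehog target in the mesenchyme, was detected on all 4 wildtype arrays (6.27 to 6.52) and on 0 of the 4 knockout arrays (5.02 to 5.33). Knockout 4 thus lay with the other knockout colons for Ihh and Hhip. Of the other hedgehog targets looked at, Gli1 was detected on 0 arrays and Ptch1 on 1 wildtype array only, and neither was tested.

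The colon label was also checked. The epithelial markers Krt8 (15.56 to 15.78), Krt20 (13.60 to 13.99) and Cdhr5 (14.04 to 15.04) were detected in every colon. Mean raw intensity was 902 to 1258 over the arrays, and 14465 to 15040 probes were detected. Knockout 4 stood apart from the other colons before any transport gene was considered. Its mean correlation with the other arrays was 0.956, against 0.964 to 0.977 for the rest, and it lay at 58.1 on a first principal component (29.8% of the variance) on which the others lay between -27.9 and 5.78. It was the lowest of the 8 colons in 25.4% of all genes tested and the highest in 23.3%. The other colons were each the lowest in 5.85% to 19.1% of genes. The expression of Xist and of Y-linked genes had a male pattern in 1 of 4 wildtype colons (colon 1) and in 3 of 4 knockout colons (colons 2, 3 and 4). The wildtype arrays lay at positions A to D of the beadchip and the knockout arrays at positions E to H. Because of these differences, the changes of the transport genes and related genes are given with and without knockout 4.

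The transport genes had lower means in knockout colons in 7 of 7 cases, but none passed the test. At a limma p adjusted over all probes tested of under 0.05, 0 of 7 members were called, against 0.0196% of all genes, and 0 had an unadjusted p under 0.05. Their median log2 change was -0.30, beside -0.0047 over all genes, of which 50.9% were lower. Without knockout 4 the members' median was -0.05, with 4 lower and 3 higher, and again 0 were called. Slc5a8, Car4, Slc26a3 and Aqp8 were far lower in knockout 4 than in any other colon, while the other 3 knockout colons lay at or near wildtype levels. The sodium channel subunits did not show that separation.

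**Figure D1:**
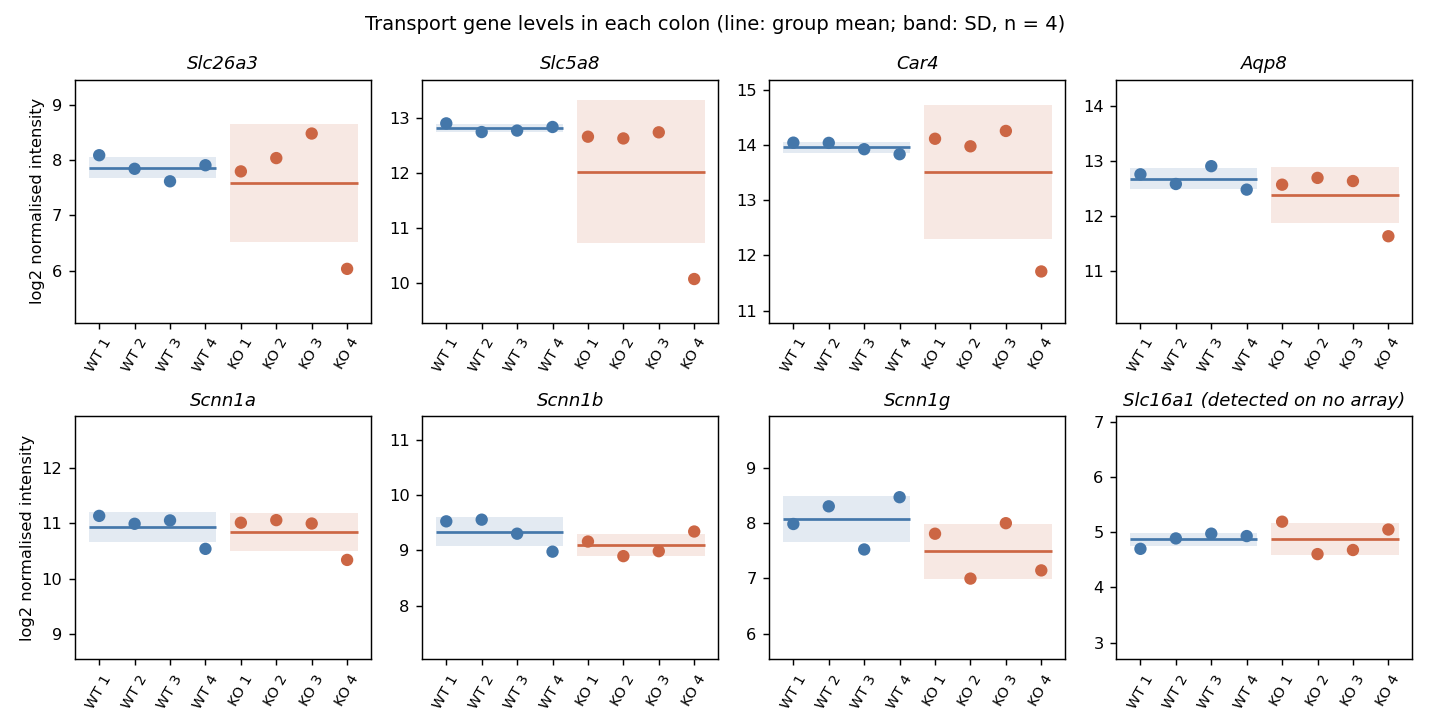
Each panel plots 1 transport gene, with log2 normalised intensity on the y axis (each panel spans the same number of log2 units) and the 8 colons on the x axis (WT wildtype, KO knockout). Points are colons, lines are group means and bands are the SD (n = 4). Knockout 4 lies far below the other 7 points for Slc26a3, Slc5a8 and Car4. Slc16a1 was detected on no array.

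Slc5a8, the sodium-coupled carrier that takes butyrate and lactate across the luminal membrane, had the largest change of the members with all 8 colons, though not without knockout 4. Its brighter probe measured 12.90, 12.74, 12.77 and 12.83 in wildtype colons 1 to 4, and 12.66, 12.62, 12.73 and 10.08 in knockout colons 1 to 4. Knockout 4 was by far the lowest, 2.55 below the next colon on the log2 scale or 5.84-fold, and the other 3 knockout colons lay just below the wildtype range. The means were 12.81 ± 0.0703 (SD, n = 4) and 12.02 ± 1.30 (SD, n = 4). The log2 change was -0.79 (SE 0.538, 95% interval -2.003 to 0.43, limma adjusted p = 0.585). Without knockout 4 it was -0.14 (SE 0.0985, 95% interval -0.37 to 0.09, limma adjusted p = 0.695).

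Slc5a8 was also the only member tested whose groups did not overlap, which was so for 7.68% of all genes. The lowest wildtype colon exceeded the highest knockout colon by 0.0051, and the groups overlapped after median scaling or cyclic loess. The two-sided exact permutation test of the 4 against 4 colons gave p = 0.0286, unadjusted, the smallest that the 70 assignments allow. A dimmer Slc5a8 probe was detected on 1 array and was not tested. Slc16a1, the proton-coupled carrier of the same acids, read between 4.60 and 5.19 and was not detected on any array, so no change can be given.

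Slc26a3 exchanges luminal chloride for bicarbonate, and its loss in humans causes congenital chloride diarrhoea. It measured 8.09, 7.85, 7.62 and 7.91 in wildtype colons 1 to 4, and 7.80, 8.04, 8.48 and 6.03 in knockout colons 1 to 4. Knockout 3 was the highest of all colons and knockout 4 the lowest, 1.59 below the next (3.00-fold). The log2 change was -0.28 (SE 0.455, 95% interval -1.31 to 0.75, limma adjusted p = 0.827). Without knockout 4 the sign turned, to 0.24 (SE 0.186, 95% interval -0.19 to 0.67, limma adjusted p = 0.715). The gap of knockout 4 narrowed to 0.69 without background correction.

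Car4 is the carbonic anhydrase anchored on the luminal face of colonocytes. It measured 14.04, 14.04, 13.92 and 13.83 in wildtype colons 1 to 4, and 14.11, 13.98, 14.25 and 11.71 in knockout colons 1 to 4. The other 3 knockout colons all lay at or above the wildtype mean, and knockout 4 lay 2.12 below the next colon (4.36-fold). The means were 13.96 ± 0.1005 (SD, n = 4) in wildtype and 13.51 ± 1.21 (SD, n = 4) in knockout. The log2 change of -0.45 (SE 0.503, 95% interval -1.58 to 0.69, limma adjusted p = 0.737) became 0.16 without knockout 4 (SE 0.115, 95% interval -0.11 to 0.42, limma adjusted p = 0.704).

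Aqp8 is the water channel of surface colonocytes. Its brighter probe measured 12.76, 12.58, 12.91 and 12.48 in wildtype colons 1 to 4, and 12.57, 12.70, 12.64 and 11.64 in knockout colons 1 to 4. Knockout 4 was again the lowest, here by 0.84 (1.80-fold), and the remaining knockout colons lay inside the wildtype range. The log2 change was -0.30 (SE 0.237, 95% interval -0.83 to 0.24, limma adjusted p = 0.632), and without knockout 4 it was -0.05 (95% interval -0.35 to 0.25). The second probe gave -0.19 (limma adjusted p = 0.762) and 0.05 without knockout 4, and had its lowest value, 11.52, in the same colon.

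The sodium channel subunits differed among themselves. Scnn1a, the alpha subunit, measured 11.13, 10.99, 11.05 and 10.54 in wildtype colons 1 to 4, and 11.01, 11.06, 10.996 and 10.34 in knockout colons 1 to 4. Colon 4 of each genotype was low, and the groups otherwise coincided, with a log2 change of -0.08 (SE 0.200, 95% interval -0.53 to 0.37, limma adjusted p = 0.898). Without knockout 4 the sign turned, to 0.09.

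Scnn1b, the beta subunit, measured 9.53, 9.56, 9.30 and 8.98 in wildtype colons 1 to 4, and 9.16, 8.90, 8.98 and 9.34 in knockout colons 1 to 4. Here knockout 4 was the highest knockout colon and knockout 2 the lowest of all. The log2 change was -0.24 (SE 0.164, 95% interval -0.61 to 0.13, limma adjusted p = 0.580), and -0.33 without knockout 4 (limma adjusted p = 0.596).

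Scnn1g, the gamma subunit, had the smallest p of the members. It measured 7.99, 8.31, 7.52 and 8.47 in wildtype colons 1 to 4, and 7.81, 6.996, 8.0 and 7.15 in knockout colons 1 to 4. Knockout colons 2 and 4 lay below every wildtype colon, whereas knockout colons 1 and 3 lay within the wildtype range. The log2 change was -0.58 (SE 0.278, 95% interval -1.21 to 0.05, limma adjusted p = 0.475), and its unadjusted limma p was 0.0655. It was -0.47 without knockout 4 (limma adjusted p = 0.663).

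**Figure D2:**
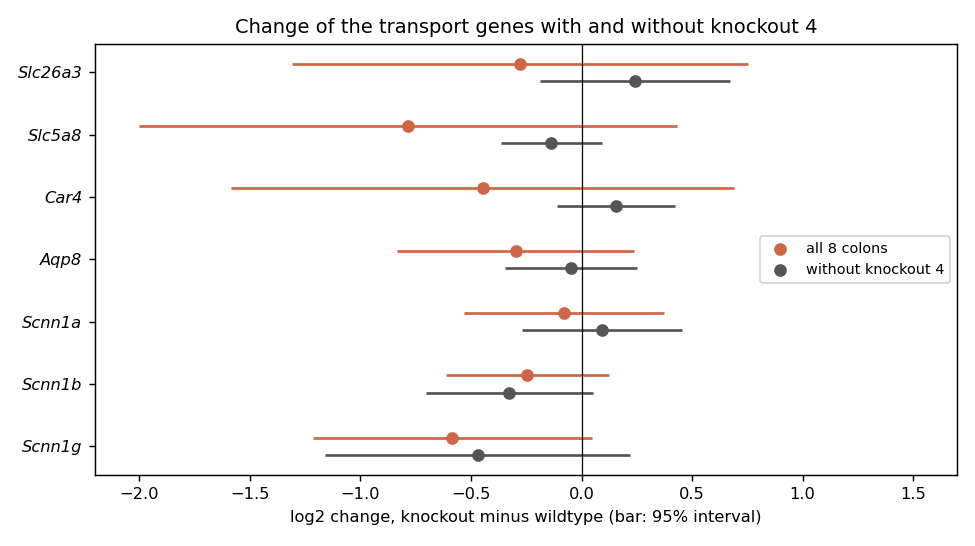
Log2 change, knockout minus wildtype, of the 7 transport genes tested, from all 8 colons and without knockout 4 (points), with 95% intervals (bars). Every interval includes 0. Without knockout 4 the changes of Slc26a3, Car4 and Scnn1a are above 0, and the intervals of Slc26a3, Slc5a8, Car4 and Aqp8 are narrower.

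Knockout 4 was the lowest colon for 5 of the 7 members, and for 3 (Slc26a3, Slc5a8 and Car4) it was the lowest by at least 1 on the log2 scale, a 2-fold gap chosen after the values had been seen. Such a gap occurred in 1.91% of all genes. Knockout 4 was the lowest by a gap as large as that of Slc5a8 in 0.147% of all genes, of Car4 in 0.295%, of Slc26a3 in 0.638% and of Aqp8 in 2.48%. For Scnn1a the same share was 14.5%. Over the 5 scalings compared, the difference of knockout 4 from the lowest other colon was -2.39 to -2.55 for Slc5a8, -2.08 to -2.19 for Car4 and -0.80 to -0.88 for Aqp8. For Slc26a3 it was -0.69 to -1.62, so that the count of 3 became 2 without background correction and in the authors' deposited table.

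**Figure D3:**
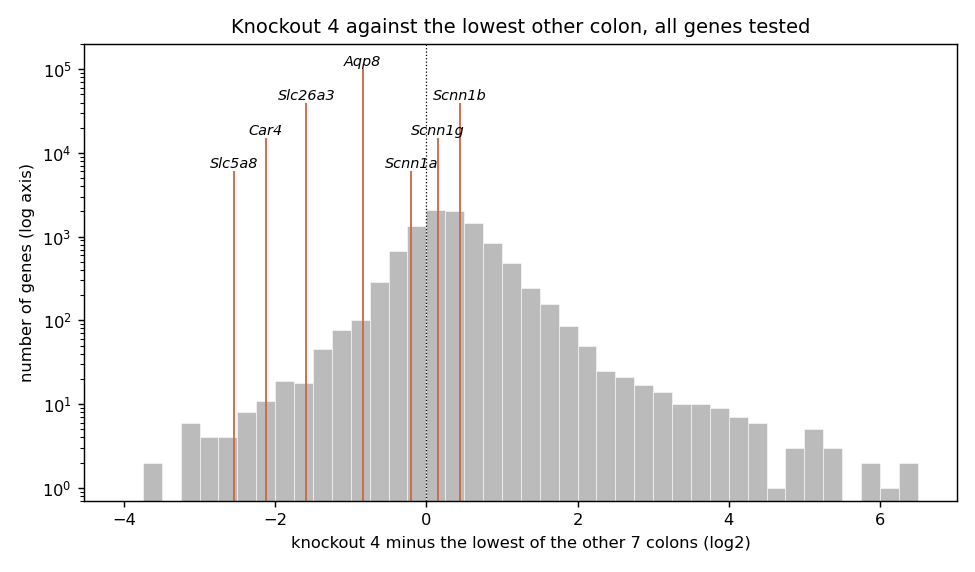
Histogram of the 10184 genes tested by the log2 value of knockout 4 minus the lowest of the other 7 colons (x axis), with the number of genes on a log axis (y axis). Lines mark the 7 transport genes, with heights set only for legibility. Slc5a8, Car4 and Slc26a3 lie at -2.55, -2.12 and -1.59, and Scnn1b and Scnn1g lie above 0.

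Slc26a3, Slc5a8, Car4 and Aqp8 followed each other across the 8 colons, with pairwise Pearson r of 0.858 to 0.981. Without knockout 4 the same pairs had r of -0.27 to 0.66 over 7 colons, so the likeness rested on that colon. Scnn1b had r of -0.30 to -0.086 with these 4 genes over the 8 colons. These correlations describe arrays that share a beadchip, and no test was made of them.

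The 8 other genes whose levels were most like the members' mean over the 8 colons were Hao2, Sult1c2, Pcca, Cryl1, Mep1a, Guca2a, Zhx1 and Pcsk4, with Pearson r of 0.991 to 0.996. Over the 7 colons without knockout 4, r was 0.789 to 0.913. Each was lowest in knockout 4. Mep1a, a subunit of the brush-border protease meprin, lay between 11.58 and 12.01 in the other colons and at 8.50 in knockout 4. Hao2, a peroxisomal hydroxyacid oxidase, was 9.09 in knockout 4, a gap of 2.40 to the next colon. Pcca, a subunit of the enzyme that handles propionyl-CoA, was 8.86 there and 9.77 to 10.11 elsewhere. Limma adjusted p-values for knockout against wildtype were 0.559 to 0.682 for the 8 genes.

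The genes that work with these transporters were described from 7 further lists, in which 0 genes were called by limma, against 0.0196% of all genes. In the list on sodium channel regulation and the aldosterone response, 10 of 11 genes were tested, of which 3 were higher and 7 lower in knockout colons, with a median log2 change of -0.06, or -0.01 without knockout 4. Nedd4l, the ubiquitin ligase that removes the channel from the membrane, differed by -0.21 (limma adjusted p = 0.588), and by -0.10 without knockout 4. Usp2, a deubiquitinase that opposes it, differed by -0.43 (limma adjusted p = 0.608), and by -0.10 without knockout 4, where it measured 9.44 against 10.35 to 11.05 elsewhere. Fkbp5, a chaperone of steroid receptors, differed by -0.20 with and without knockout 4. St14, the membrane protease matriptase, differed by 0.15, or by 0.10 without that colon.

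For the basolateral pump and potassium transport, 12 of 13 genes were tested, 5 higher and 7 lower, with a median of -0.05 with and without knockout 4. Atp12a, the colonic proton-potassium pump, was the 1 gene of the 12 whose groups did not overlap, beside 7.68% of all genes. It measured 11.74, 12.72, 12.71 and 12.68 in wildtype colons 1 to 4, and 13.02, 13.16, 13.27 and 12.85 in knockout colons 1 to 4. Every knockout colon was above every wildtype colon and wildtype 1 lay well below the rest, with a log2 change of 0.61 (SE 0.230, limma adjusted p = 0.414) and of 0.69 without knockout 4. The potassium channel Kcnk5 measured 9.85 in knockout 4 and 11.07 to 11.87 elsewhere, and its log2 change of -0.57 was -0.23 without that colon. Kcnma1 differed by -0.24 (limma adjusted p = 0.634), or by -0.30 without knockout 4, and was lowest in knockout 3. Slc12a7 differed by -0.19 (limma adjusted p = 0.613), or by -0.08 without knockout 4. Kcne3, the partner subunit of the basolateral channel Kcnq1, measured 5.14 in knockout 4 and 6.46 to 7.47 elsewhere. It was detected on 4 wildtype and 3 knockout arrays.

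Among genes of sodium-proton and anion exchange, 11 of 17 were tested, 3 higher and 8 lower, with a median of -0.07, or 0.02 without knockout 4. Chp2, an intestinal cofactor of sodium-proton exchangers, measured 11.16, 10.37, 9.66 and 9.78 in wildtype colons 1 to 4, and 9.64, 9.48, 9.46 and 8.78 in knockout colons 1 to 4. All knockout colons lay below the wildtype range, and it was the 1 gene of the 11 whose groups did not overlap, beside 7.68% of all genes. The log2 change was -0.90 (SE 0.332, limma adjusted p = 0.408), or -0.72 without knockout 4. Slc26a6, a relative of Slc26a3 that also exchanges anions, differed by 0.38 (limma adjusted p = 0.535), or by 0.46 without knockout 4, and was detected on 3 wildtype and 4 knockout arrays. The sulphate carrier Slc26a2 differed by -0.36, or by -0.19 without knockout 4. Chp1, the relative of Chp2 found in most tissues, differed by -0.28, or by -0.15 without that colon.

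Chloride secretion and guanylin signalling had 10 of 11 genes tested, 2 higher and 8 lower, with a median of -0.21, or -0.02 without knockout 4. Knockout 4 was the lowest colon for 7 of them. Prkg2, the cGMP-dependent kinase downstream of the guanylin receptor, measured 7.91 in knockout 4 and 9.85 to 10.60 elsewhere, with a log2 change of -0.82 (limma adjusted p = 0.532) and of -0.29 without that colon. Clca4b went the other way, with 10.81 in knockout 4 and 7.83 to 9.24 elsewhere. Ano1, a calcium-activated chloride channel, differed by -0.38 (limma adjusted p = 0.410), or by -0.29 without knockout 4. Clca1, a protein secreted by goblet cells, measured 13.65 in knockout 4 and 15.08 to 15.62 elsewhere.

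For other carriers and sensors of short-chain and lactic acids, 7 of 12 genes were tested, 3 higher and 4 lower, with a median of -0.11, or -0.09 without knockout 4. Hcar2, a receptor for butyrate and ketone bodies, was the 1 gene of the 7 whose groups did not overlap, beside 7.68% of all genes. It measured 5.75, 6.38, 6.66 and 6.28 in wildtype colons 1 to 4, and 6.97, 6.69, 6.85 and 6.84 in knockout colons 1 to 4. The change was 0.57 on the log2 scale (SE 0.187, limma adjusted p = 0.387), and 0.57 again without knockout 4. Slc16a9, a member of the monocarboxylate carrier family, measured 7.15 in knockout 4 and 8.33 to 8.81 elsewhere. Slc16a3, a lactate exporter, differed by 0.32 with and without knockout 4. Detected on 1 wildtype and 4 knockout arrays, it met the filter of detection on 4 or more arrays only through the knockout arrays, which favours such a difference. Slc16a10, a carrier of aromatic amino acids, differed by -0.26, or by -0.14 without knockout 4, and was detected on 4 wildtype and 3 knockout arrays.

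Other carbonic anhydrases gave 7 of 11 genes tested, 3 higher and 4 lower, with a median of -0.00079, or 0.10 without knockout 4. Car13, a cytosolic enzyme, measured 9.88 to 10.04 in wildtype and 10.13 to 10.38 in knockout colons. It was the 1 gene of the 7 whose groups did not overlap, beside 7.68% of all genes. Its log2 change was 0.34 (SE 0.107, limma adjusted p = 0.387), or 0.31 without knockout 4. Car9, a membrane-bound enzyme, differed by 0.30 (limma adjusted p = 0.474), in the same direction on all 3 of its probes, or by 0.38 without knockout 4. Car14 was 4.91 in knockout 4 and 6.16 to 6.47 elsewhere, and was detected on 4 wildtype and 3 knockout arrays. Car3, known from muscle and fat, differed by -1.15 (limma adjusted p = 0.450), or by -1.15 again without knockout 4. The summed level of the adipocyte markers Adipoq and Lep was 1404 to 3146 in wildtype and 615 to 2223 in knockout colons, on the linear intensity scale. Its part in the Car3 difference was not tested.

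Other aquaporins gave 6 of 10 genes tested, 1 higher and 5 lower, with a median of -0.40, or -0.36 without knockout 4. Aqp12, known from the pancreas, was detected on 4 wildtype arrays (5.88 to 7.18) and on 1 knockout array (4.82 to 5.62), and was the 1 gene of the 6 whose groups did not overlap, beside 7.68% of all genes. Its log2 change was -1.04 (SE 0.292, limma adjusted p = 0.353), or -0.88 without knockout 4. Aqp12 met the filter of detection on 4 or more arrays only through the wildtype arrays, a selection that favours such a difference. Aqp1, a water channel of endothelium, differed by -0.41 (limma adjusted p = 0.474) on 3 probes that were all lower, or by -0.23 without knockout 4. Aqp3, which epidermis also expresses, differed by -0.80 with and without knockout 4, and was detected on 3 wildtype arrays and 1 knockout array. Aqp4, a basolateral channel, differed by -0.39 (limma adjusted p = 0.645), or by -0.48 without that colon. Aqp3 was highest in wildtype 4, at 8.16, which also had the highest summed level of the 7 skin and stratified epithelium markers tested. Its part in the Aqp3 difference was not tested.

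**Figure D4:**
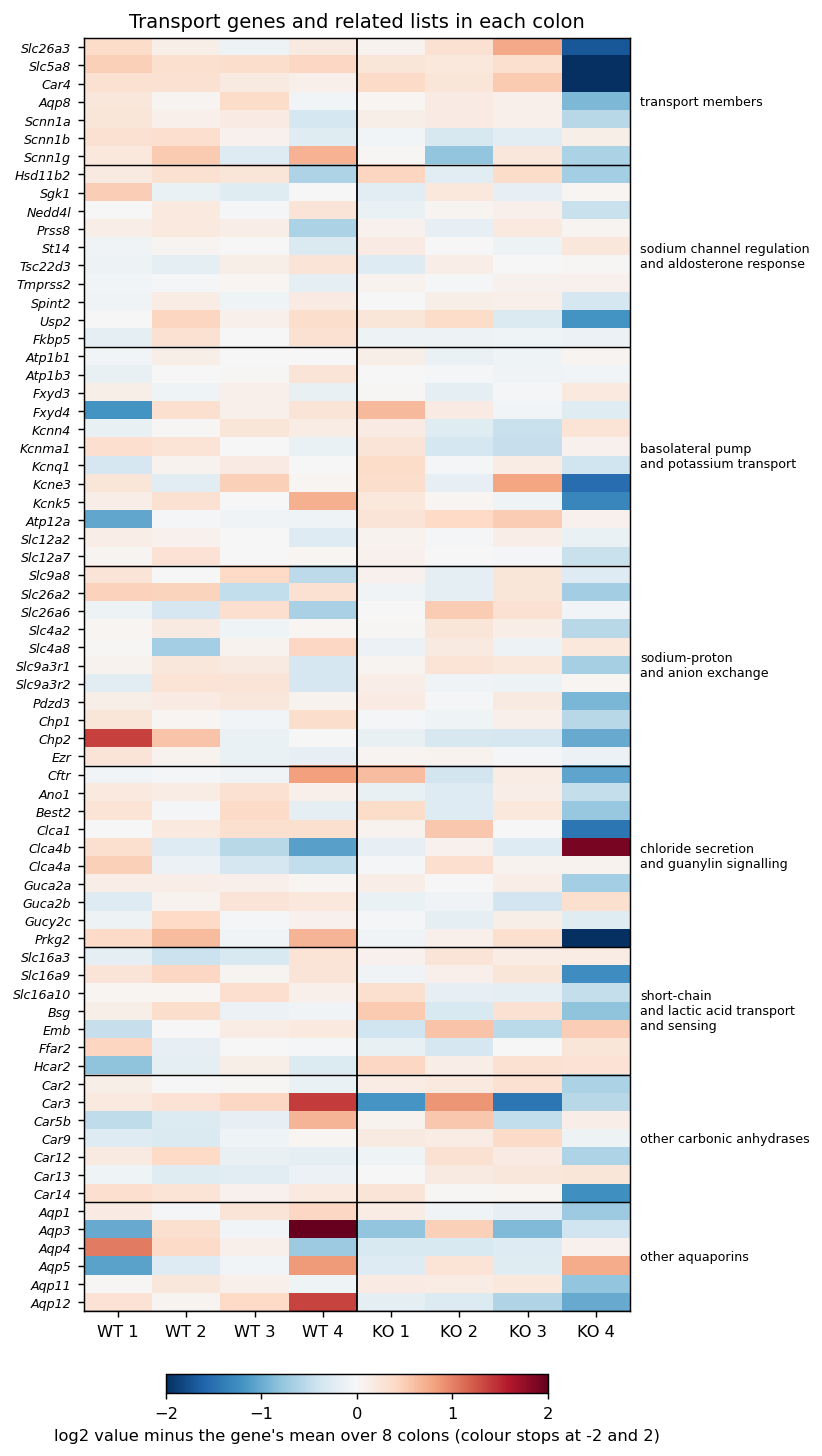
Heat map of the 7 transport genes and the tested genes of 7 related lists (rows) in the 8 colons (columns, WT wildtype, KO knockout). Colour gives each gene's log2 value minus its mean over the 8 colons, and stops at -2 and 2. Among the dark blue cells of the KO 4 column are Slc26a3, Slc5a8, Car4, Kcne3, Kcnk5, Clca1 and Prkg2, and the dark red cell there is Clca4b.

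Markers of the cell types in the samples were set beside the transport genes. Of 14 absorptive colonocyte markers, 11 were tested, 1 higher and 10 lower, with a median log2 change of -0.27, or -0.10 without knockout 4. Knockout 4 was the lowest for 9 of these 11, and for Cdhr2, Slc51a and Dpep1 by at least 1. Their score, the mean log2 value after each gene's mean is removed, was -1.01 in knockout 4 and -0.07 to 0.32 in the other colons. The transport genes had a score of -1.15 in knockout 4 and of -0.0025 to 0.31 in the others. Summed on the linear scale, the absorptive markers reached 124617 to 144142 in wildtype and 78663 to 131156 in knockout colons. The range for the transport genes was 30180 to 34933 in wildtype and 9764 to 35881 in knockout colons.

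Markers of epithelium in general were level across the colons. Of 11, 10 were tested, and their score in knockout 4 was -0.0040, within the -0.06 to 0.06 of the other colons. Their summed level was 109423 to 119331 in wildtype and 115665 to 120255 in knockout colons. Of the 5 goblet cell markers tested, 2 were higher and 3 lower in knockout colons, with a median log2 change of -0.02, or -0.01 without knockout 4. Their score was -0.14 in knockout 4, the lowest of all colons, and -0.06 to 0.13 in the others. Tff3, lower in knockout colons, was the 1 gene of the 5 whose groups did not overlap, beside 7.68% of all genes. Knockout 4 was the lowest colon for 2 of the 5, and by at least 1 only for Clca1. Zg16 (15.75 in knockout 4, 15.22 to 15.65 elsewhere) and Spink4 (15.36 in knockout 4, 14.72 to 15.20 elsewhere) were highest there.

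Proliferation markers differed the other way between the genotypes. All 6 tested were higher in knockout colons, with a median log2 change of 0.79, or 0.64 without knockout 4. Of the 6, 0 were called, against 0.0196% of all genes, but 6 had an unadjusted limma p under 0.05. Among the 10184 genes tested, 682 were higher and 442 lower at that unadjusted p. The groups did not overlap for 3 of the 6, Mcm5 among them, beside 7.68% of all genes. The score of the 6 markers was 0.85 in knockout 4, the highest of all colons, and -0.65 to -0.07 in wildtype colons. Mcm5, a subunit of the replicative helicase, measured 11.58 in knockout 4, 11.03 to 11.19 in the other knockout colons and 10.15 to 10.75 in wildtype colons. The part of these marker differences in the transport gene values was not tested.

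Tissues around the epithelium also varied. The 8 smooth muscle markers were all lower in knockout colons, with a median log2 change of -0.47, or -0.33 without knockout 4, and scores of -0.55 in knockout 3 and -0.50 in knockout 4. Slc26a3 and Car4 were highest of all colons in knockout 3 and lowest in knockout 4. Skeletal muscle markers, of a tissue outside the colon wall, had scores of 1.57 in wildtype 2, 1.36 in wildtype 3, 2.84 in knockout 2 and 1.65 in knockout 4, and of -1.96 to -1.67 in the other colons. Car4 levels were 13.92 to 14.04 in wildtype 2, wildtype 3 and knockout 2, and 11.71 in knockout 4. The 7 skin and stratified epithelium markers tested had a median log2 change of -0.94, or -1.25 without knockout 4, and the 2 red cell markers a score of -1.62 in knockout 4, their lowest. Of 3 kidney tubule genes, 1 was tested, with a score of 0.46 in knockout 4. The part of these tissues in the transport gene values was not tested.

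**Figure D5:**
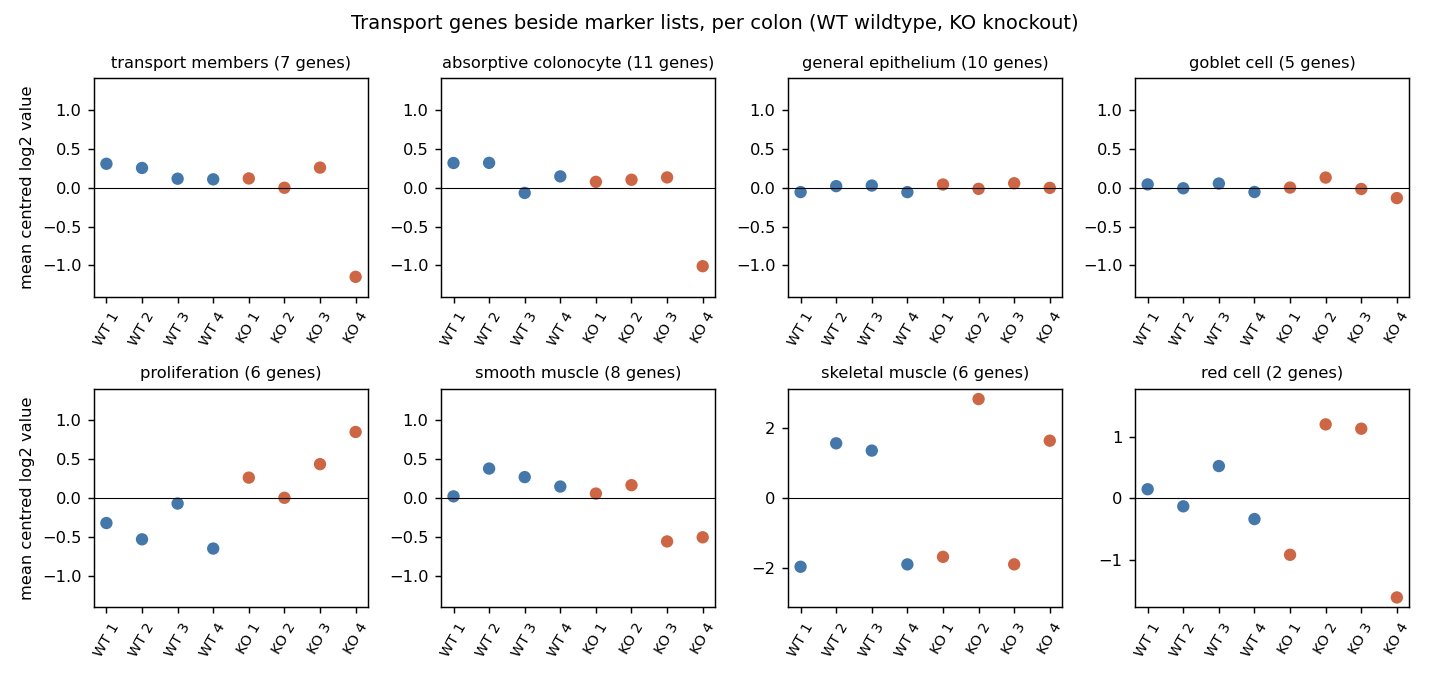
Score of the transport genes and of 7 marker lists in each colon (x axis, WT wildtype in blue, KO knockout in orange). The y axis is the mean over a list's genes of the log2 value minus the gene's mean over the 8 colons, and the 2 last panels have wider axes. In knockout 4 the transport genes lie at -1.15 and the absorptive colonocyte markers at -1.01, the general epithelium markers lie near 0, and the proliferation markers are highest, at 0.85.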

How the data were processed

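RNA of 8 whole colons had been hybridised to Illumina arrays. Each of the 25697 probes has an average intensity and a p-value of detection per array in the deposited table, per the file headers. The submitters' processing notes name GenomeStudio without a version. A second table of intensity values deposited by the authors matched a quantile normalisation of the raw values within 0.0278 on the log2 scale, and served as an alternative. Depth does not apply to arrays, and their number limits the precision.

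The function neqc of limma 3.58.1 (R 4.3.3) removed background by way of the detection p-values, added an offset of 16, normalised by quantiles and took log2. Probes detected at p under 0.05 on 4 or more of the 8 arrays, 14754 in all, entered lmFit and eBayes, and genotype was the only term. Tests were two-sided, with Benjamini-Hochberg adjustment across every probe tested. The platform annotation gave 1 gene symbol to 23978 probes and none to 1719. The tested probe with the highest mean stood for a gene. The named genes were all members, the up to 4 genes of smallest p in each pathway list and the 8 genes most like the members. From the marker lists, only some of the up to 3 genes of highest mean level per list were named. Genes named for a gap in knockout 4 were chosen after their values were seen. The fit was tested on simulated data with normal noise, no outlying colon and planted changes larger than that of any member. That test does not show how the fit handles changes of the members' size or a colon such as knockout 4. The members and lists were chosen with earlier results of these data known. Alternatives covered background correction, scaling, filter, probe choice, variance prior, array weights, a replicate block, array position, the scores of other tissues, sex and leaving out each colon.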

Additional observations from a re-analysis of the deposited data

Results flagged for a closer look

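In groups of 4 colons, a colon was looked for whose distance to the nearest of the others took up most of the group's range (Dixon's test at 95%). Of 70 groups tested, 11 held such a colon, and chance puts about 5% of independent groups past the criterion. These groups were not independent, because the members and the pathway genes of smallest p were read on the same arrays. The share over all genes was not computed, so no excess can be read from the count. Knockout 4 was the low colon in 6 of them. Among the transport genes these were Slc5a8 at 10.1 on the log2 scale, Car4 at 11.7, Aqp8 at 11.6 and Scnn1a at 10.3. The other low values of knockout 4 were Prkg2 at 7.91 and Car14 at 4.91. Knockout 4 was far above the other knockout colons for Clca4b at 10.8 and Aqp4 at 12.7. In wildtype colons, Atp12a was low in colon 1 at 11.7, Slc12a7 was high in colon 2 at 8.97 and Slc26a2 was low in colon 3 at 6.62.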

How the results depend on the processing

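No transport gene was called under any alternative limma fit, with a smallest adjusted p of 0.321. The exact permutation test put Slc5a8 at an unadjusted p of 0.0286. In all, 150 of 161 alternative values of single members kept their direction and their side of the threshold. That count includes alternatives that could not change a direction. The detection filters, the variance prior, the replicate block and the exact test left each member's log2 change as it was. The exact test also set an unadjusted p against the threshold. The count is therefore no measure of how stable the directions are. Some signs turned without knockout 4, with array weights or with array position as a term. Leaving out single colons moved the log2 change of Slc26a3 between -0.58 and 0.24, of Car4 between -0.69 and 0.16, of Scnn1a between -0.21 and 0.093, and the members' median between -0.58 and -0.05. The changes of Slc5a8, Aqp8, Scnn1b and Scnn1g stayed below 0, with Slc5a8 between -1.02 and -0.14. Array weights gave Slc26a3 0.036. With array position as a term, which overlaps closely with genotype, the median was 0.68 and Slc26a3 became 0.85, Slc5a8 0.77, Car4 1.09, Aqp8 0.38, Scnn1a 0.68 and Scnn1b 0.0086, with limma adjusted p-values of 0.985 to 0.998. The SE of Slc26a3 rose from 0.455 to 0.877 in that fit, which cannot separate position from genotype. The 1 member whose groups did not overlap became 0 with median scaling and with cyclic loess. Over all genes, the 2 calls became 3 with array weights and 1 with a trended and robust prior or the mean of a gene's probes. They became 0 without background correction, in the authors' deposited table, with strict detection, with array position, with muscle and skin scores, with the general epithelium score and with the sex pattern. Leaving out single colons gave 0 to 10 calls, the 10 without knockout 1. With the replicate block 0 genes were called. Deviations of same-numbered colons correlated at 0.136, 0.210, -0.18 and -0.04, which cannot show whether the numbers pair the colons. The causes of these shifts were not tested.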

Other observations

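Knockout 4 was lower than every other colon by at least 1 on the log2 scale in 195 genes and higher by as much in 84, whereas each other colon was the lowest by that much in 0 to 12 genes. The genes named here were chosen after their values were seen, and knockout 4 is a single colon, so none was tested. Those farthest below included Slc51a, a subunit of the basolateral bile acid exporter, at 6.78 against 10.51 to 11.93 elsewhere. Edn2, an endothelin, was at 6.38 against 9.96 to 11.63, and the brush-border disaccharidase Sis was at 5.22 against 8.36 to 9.65. Those farthest above included the matrix metalloproteinases Mmp10 (10.61 against 5.85 to 7.28) and Mmp7 (10.02 against 4.72 to 6.70). The cytokine Il1b was at 9.63 against 6.43 to 7.43. The antimicrobial lipocalin Lcn2 was at 10.16 against 7.38 to 8.15 and the neutrophil chemokine Cxcl1 at 9.09 against 5.80 to 7.09. These are a selection from the 12 genes farthest above. The rest were Slc7a11, Dlk1, Atg9b, Syt8, Mmp3, Gm1673 and Mfsd2a. Slc7a11 (9.73 against 5.33 to 6.87) and Dlk1 (10.23 against 5.09 to 7.38) stood farther above than Il1b, Lcn2 and Cxcl1.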
